A study of Mus musculus with 30 samples.

Results

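Transcripts of 10 mouse genes that move, store and sense iron were followed in dendritic cells exposed to the mould Aspergillus fumigatus. They are the iron exporter Slc40a1, the transferrin receptor Tfrc, the divalent metal transporters Slc11a1 and Slc11a2, the ferritin chains Fth1 and Ftl1, the ferritin cargo receptor Ncoa4, the iron regulatory proteins Aco1 and Ireb2, and the heme-binding repressor Bach1. The members were the rows of the gene table whose Ensembl IDs carry these symbols, 10 of 54532 genes, and all 10 passed the filter on low counts. The cells were grown for 6 days with GM-CSF from bone marrow of wild-type mice (WT) and of Nlrx1 deficient mice (KO), and then received viable conidia of the isolate AF29. RNA was taken before challenge (0 h) and at 3, 6, 9 and 12 h, with 3 libraries in each of the 10 groups. All groups share the GM-CSF culture, and the 0 h group of each genotype is the one without conidia. No later time has libraries without conidia, so effects of conidia and of hours in culture cannot be told apart. The sources used here do not state which part of Nlrx1 was deleted, in which cells, or the age of the mice. Nothing in the labels tells if the replicate libraries are different mice, different cultures or repeats of 1 culture. The tests therefore rest on the spread among these samples alone, and that spread may be technical.

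Iron enters a cell mainly as transferrin bound to the transferrin receptor, is set free in endosomes and crosses their membrane through DMT1, the product of Slc11a2. What is not used is stored in ferritin, a shell of heavy (Fth1) and light (Ftl1) chains, or leaves through ferroportin, the product of Slc40a1 and the known iron exporter of animal cells. The regulatory proteins encoded by Aco1 and Ireb2 bind a stem-loop, the iron-responsive element, when iron is low. In the 5′ untranslated region (UTR) this holds back translation, as in the ferritins and ferroportin, and in the 3′ UTR of the transferrin receptor it protects the transcript from decay. BACH1 is known to repress ferritin, ferroportin and heme oxygenase genes until heme binds it, NCOA4 carries ferritin to lysosomes, and NRAMP1, the product of Slc11a1, takes iron and manganese out of phagosomes that hold microbes.

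Iron-responsive elements found in the members are printed here because the same proteins bind them. Their place in the 5′ or 3′ UTR sorts these genes into those repressed and those stabilised. Each line gives 27 bases of a GENCODE M21 transcript as DNA letters, 5′ to 3′, with the bulged C and the loop CAGTGN in capitals. A match was a C, any 5 bases, CAGTG and any base N on the transcript strand, with those 5 bases paired to the 5 after the loop.
Fth1: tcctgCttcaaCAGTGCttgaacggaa
Ftl1: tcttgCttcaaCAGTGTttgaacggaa
Slc40a1: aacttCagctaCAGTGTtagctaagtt
Tfrc 1: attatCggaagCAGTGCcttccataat
Tfrc 2: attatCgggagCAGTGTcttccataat
Tfrc 3: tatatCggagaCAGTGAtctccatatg
Tfrc 4: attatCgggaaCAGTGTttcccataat

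In GRCm38 the elements of the first 3 genes lie in 5′ UTRs, for Fth1 at chr19:9982733-9982759 on the plus strand, for Ftl1 at chr7:45459780-45459806 on the minus strand and for Slc40a1 at chr1:45925466-45925492 on the minus strand. The 4 elements of Tfrc that met this pattern lie in its 3′ UTR on the plus strand, at chr16:32631220-32631246, chr16:32631599-32631625, chr16:32631664-32631690 and chr16:32631711-32631737. The pattern is rare: of 21866 protein-coding genes, 0.137% held it in a 5′ UTR and 0.585% in a 3′ UTR. In the other 6 members no stretch with these letters and all 5 stem pairs was found in an annotated UTR. Elements with an imperfect stem were not searched for, so their absence is not shown. RefSeq promoter windows of GRCm38.p6, from 250 bases before to 50 bases after the start, were at hand for 8 members, 12 windows in all. Slc40a1 and Slc11a2 had no window and were not searched. The antioxidant-type motif TGACNNNGC, searched on both strands, stood in 12.4% of all 32851 windows. Among members it stood only in a window of Ncoa4, at -44 from the start used for that window (chr14:32165735-32165763, aggcggggcgTGACCTGGCcggtagggta, motif in capitals). That start lies inside the annotated span of Ncoa4, which begins at 32159865. The motif CACGTG stood in 7.15% of windows and in none of those of the 8 members.

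The libraries held 1722384 to 3509429 counts (median 2492886). Nlrx1, the targeted gene, had counts of 13 to 46 in the WT libraries and of 0 to 14 in the libraries labelled KO. Its mean was 9.32 ± 2.93 CPM (counts scaled to a common library total) in WT and 2.49 ± 1.75 CPM in KO (SD, n = 15 each), a log2 difference of -1.87. By the edgeR test described below, the Nlrx1 difference passed at 0 h (adjusted p = 0.0326) and 9 h (0.0209). It did not pass at 3 h (0.128), 6 h (0.114) or 12 h (-1.15, 0.485), although the libraries of the genotypes did not overlap at any time. The dendritic label was checked on marker genes. Itgax was at 1160 to 1410 CPM, Cd74 at 625 to 1480 and H2-Aa at 183 to 270, whereas Zbtb46 was at 6.64 to 24 and Flt3 at 0 to 2.46. The macrophage markers Adgre1 (139 to 250 CPM) and C1qb (47.9 to 150) were present too. So were the neutrophil marker S100a9 (81 to 473) and the neutrophil granule gene Ltf (12.7 to 95.9). Ly6g, another neutrophil marker, was at 0 to 2.93 CPM. Of the listed markers, 12 of 13 for macrophages and 8 of 13 for neutrophils averaged at least 1 CPM. Erythroid cells, which handle most body iron, left little trace: 2 of 12 matched erythroid markers averaged at least 1 CPM, and Hba-a2, Hbb-bt and Epor had no count in any library. In such bulk RNA, fewer cells of a type and less RNA per cell cannot be told apart.

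Levels below are CPM over TMM-scaled library totals, given per library in the order of replicates 1 to 3. Changes are log2 values ± standard error from edgeR's quasi-likelihood fit to all 30 libraries. The standard error was computed back from the test, as the absolute change over the square root of its F statistic. Its two-sided p-values were corrected over the 12393 genes tested with the Benjamini-Hochberg method. A gene is said to rise or fall where the adjusted p was under 0.05. Each later time was set against the same 0 h libraries, so the time changes of a genotype are not independent of each other.

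Per kilobase of principal transcript, the storage genes stood far above the others. Fth1 had a median of 6579 CPM per kilobase over the 30 libraries and Ftl1 of 1707. Then came Slc11a1 at 43.0, Ncoa4 at 24.7, Bach1 at 16.9, Aco1 at 16.4, Tfrc at 11.45, Slc11a2 at 9.92, Ireb2 at 9.61 and Slc40a1 at 6.99 CPM per kilobase. The ranges over libraries overlapped between neighbours in this order from Ncoa4 down, and did not overlap between Fth1, Ftl1, Slc11a1 and Ncoa4. Slc40a1 was the member that moved most, from 2.99 to 18.05 CPM per kilobase.

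Slc40a1 (ENSMUSG00000025993, chromosome 1, 45908068 to 45926523), which encodes ferroportin, climbed steeply after conidia were added and was back near its starting level at 12 h. The WT libraries held 14.5, 10.1 and 11.2 CPM before challenge, 22.2, 20.0 and 26.2 after 3 h, 42.0, 60.8 and 52.8 after 6 h, 52.0, 56.8 and 57.4 after 9 h, and 15.2, 13.9 and 13.5 after 12 h. For KO the same times gave 15.02, 14.2 and 12.8 CPM, 24.9, 20.8 and 26.6, 39.2, 52.1 and 39.7, 57.8, 56.8 and 60.3, and 21.8, 14.03 and 21.5. In both genotypes every library of 3, 6 and 9 h lay above every 0 h library, and the 12 h libraries overlapped those of 0 h.

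At 6 h the log2 change of Slc40a1 was 2.11 ± 0.17 in WT (adjusted p = 2.49e-09) and 1.64 ± 0.17 in KO (adjusted p = 3.44e-07). By 9 h it was 2.20 ± 0.17 in WT, a 4.60-fold rise (adjusted p = 5.41e-10), and 2.05 ± 0.17 in KO, a 4.15-fold rise (adjusted p = 7.69e-10). The 9 h rise was called under each of the 13 alternative settings of each genotype, at 2.10 to 2.38 in WT and 2.01 to 2.11 in KO. From 9 to 12 h the transcript fell by 1.95 on the log2 scale in WT (SE 0.16, adjusted p = 8.43e-10) and by 1.63 in KO (SE 0.16, adjusted p = 4.30e-08). At 12 h the change from 0 h was 0.25 ± 0.19 in WT (adjusted p = 0.416) and 0.42 ± 0.19 in KO (adjusted p = 0.152). Without KO 12 h replicate 2, the lowest of its group, the KO value was 0.62 and passed (adjusted p = 0.0332).

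The first step of the Slc40a1 rise was the least secure. At 3 h it was 0.92 ± 0.19 in WT (adjusted p = 0.00762) and 0.78 ± 0.18 in KO (adjusted p = 0.0246), with no overlap of the libraries. Leaving out WT 0 h replicate 2 (adjusted p = 0.0635) or 3 (0.0562), or WT 3 h replicate 3 (0.0706), ended the WT call. The KO call was lost on omitting any KO 0 h library (0.0588, 0.0914 and 0.134 for replicates 1, 2 and 3), KO 3 h replicate 1 (0.0908) or 3 (0.138), or the count filter (0.0722). Both ended in a fit of the compared groups alone (0.114 in WT and 0.141 in KO).

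**Figure D1:**
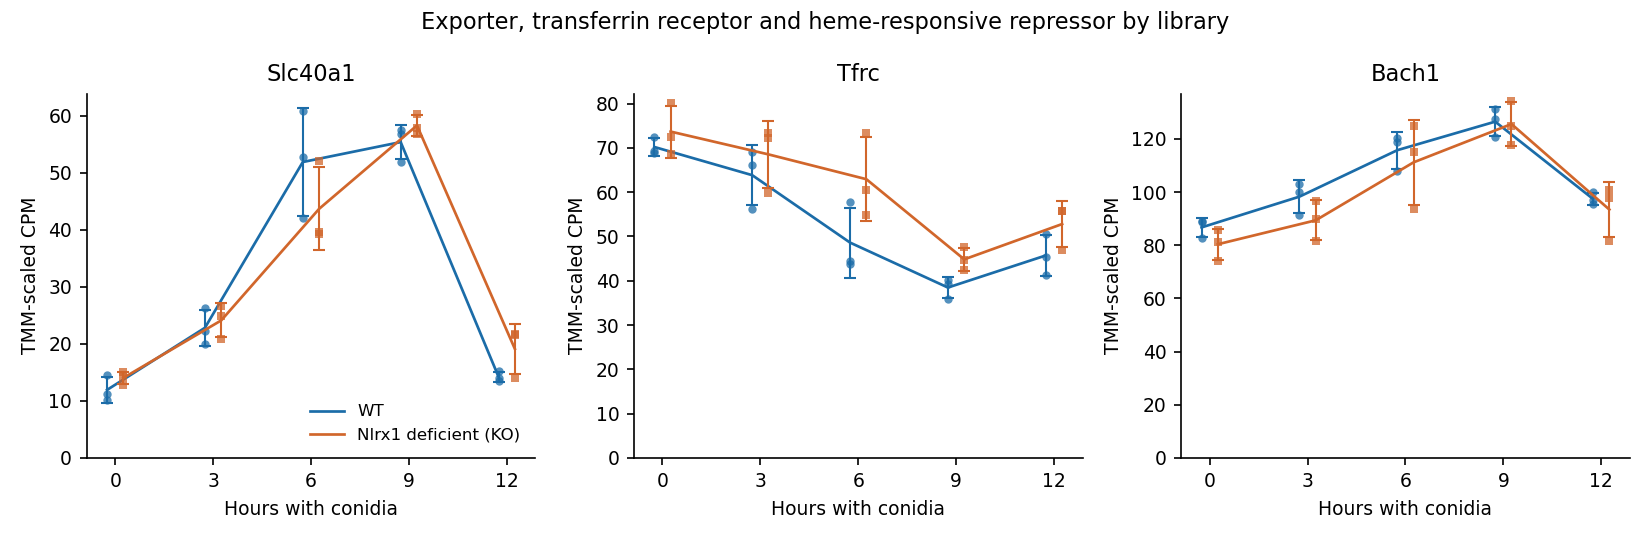
Levels of Slc40a1, Tfrc and Bach1 in TMM-scaled CPM (linear axes from 0) against hours with conidia; points are libraries, lines join group means, and bars are SD (n = 3), with WT as circles and KO as squares. Slc40a1 had its highest group means at 9 h (55.4 CPM in WT and 58.3 in KO) and lay between 13.5 and 21.8 at 12 h, Tfrc was lowest at 9 h (35.9 to 47.6 CPM), and Bach1 was highest at 9 h (118 to 134 CPM).

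Tfrc (ENSMUSG00000022797, chromosome 16, 32608920 to 32632794), the receptor for transferrin-bound iron, moved the other way. Its WT levels were 69.2, 72.6 and 68.9 CPM before challenge, 69.1, 56.2 and 66.2 after 3 h, 43.7, 57.8 and 44.4 after 6 h, 35.9, 39.3 and 40.3 after 9 h, and 41.2, 50.5 and 45.5 after 12 h. The KO levels in the same order were 80.1, 68.6 and 72.4 CPM, 59.9, 72.3 and 73.4, 54.8, 73.4 and 60.6, 47.6, 42.3 and 44.6, and 55.8, 46.9 and 55.8. From 6 h on every WT library lay below the WT 0 h libraries, and in KO this held from 9 h on.

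In WT the transferrin receptor transcript fell by 0.53 on the log2 scale at 6 h (SE 0.12, adjusted p = 0.00531), by 0.87 at 9 h (SE 0.12, adjusted p = 7.80e-06) and by 0.62 at 12 h (SE 0.12, adjusted p = 0.000319). In KO the value at 6 h was -0.22 ± 0.12 (adjusted p = 0.338), and Tfrc fell by 0.71 at 9 h (SE 0.12, adjusted p = 0.00011) and by 0.48 at 12 h (SE 0.12, adjusted p = 0.00497). These falls were called under all 13 alternatives. Tfrc was still below its 0 h level at 12 h, and from 9 to 12 h its change was 0.25 ± 0.12 in WT (adjusted p = 0.218) and 0.23 ± 0.12 in KO (adjusted p = 0.386).

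The ratio of Slc40a1 to Tfrc counts within a library, which does not depend on scaling, joins both movements. In WT it was 0.139 to 0.209 at 0 h, 0.322 to 0.396 at 3 h, 0.961 to 1.19 at 6 h and 1.43 to 1.45 at 9 h, and it was 0.276 to 0.369 at 12 h. In KO it was 0.177 to 0.208, then 0.288 to 0.415, 0.655 to 0.716 and 1.22 to 1.35, and 0.299 to 0.391 at 12 h. The groups did not overlap between 0, 3, 6 and 9 h in either genotype, and the 12 h ratios lay above those of 0 h.

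Slc11a1 (ENSMUSG00000026177, chromosome 1, 74375195 to 74386062), the phagosomal transporter, rose late and modestly. It was at 92.9, 91.9 and 85.9 CPM in WT at 0 h and at 119, 129 and 124.5 at 9 h, a change of 0.46 ± 0.12 (adjusted p = 0.00967). The KO libraries were at 87.1, 103 and 83.5 CPM at 0 h and at 126, 118 and 126 at 9 h, a change of 0.43 ± 0.12 (adjusted p = 0.0179). Neither pair of groups overlapped. Leaving out WT 0 h replicate 3 ended the WT call (adjusted p = 0.0502). The KO call did not hold without KO 0 h replicate 1 (0.0662) or 3 (0.0904), without KO 9 h replicate 1 (0.0569) and without the count filter (0.0555). At 12 h the libraries of Slc11a1 spread out, from 90.5 to 123 CPM in WT and from 94.6 to 142 in KO. From 9 to 12 h the WT change of -0.24 ± 0.11 did not pass (adjusted p = 0.200), but did without WT 12 h replicate 1 (-0.39, 0.0468). The KO change at 12 h was 0.35 ± 0.12 and just missed the threshold (adjusted p = 0.0510). Leaving out KO 0 h replicate 2 (0.0299) or KO 12 h replicate 1 (0.00929) made it pass, as did DESeq2 size factors (0.0395) or scaling on protein-coding genes (0.0457).

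Slc11a2 (ENSMUSG00000023030, chromosome 15, 100387898 to 100425072), the endosomal transporter DMT1, was called in no comparison. Its group means lay between 25.6 and 35.8 CPM, and the largest change was 0.50 ± 0.19 in KO at 12 h (adjusted p = 0.0809). In that comparison the libraries were at 27.03, 28.1 and 21.6 CPM at 0 h and at 34.4, 42.7 and 30.3 at 12 h, without overlap.

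Fth1 (ENSMUSG00000024661, chromosome 19, 9980598 to 9985098), the ferritin chain that oxidises iron, was the most deeply counted member, with 17534 to 36072 counts per library. WT libraries held 9256, 9057 and 8870 CPM at 0 h and 11010, 10900 and 10840 at 9 h. KO libraries held 9112, 9637 and 9401 CPM at 0 h and 11180, 11290 and 10870 at 9 h. The groups were apart, although the rise was small: 0.27 ± 0.03 in WT (adjusted p = 5.19e-07) and 0.24 ± 0.03 in KO (adjusted p = 2.23e-06).

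From 9 to 12 h Fth1 fell by 0.22 in WT (SE 0.03, adjusted p = 1.62e-05), to 9883, 9239 and 9086 CPM. In KO its change over that step was -0.10 ± 0.03 (adjusted p = 0.0575), and the libraries were at 10600, 10560 and 9910 CPM. That KO change passed without KO 9 h replicate 3 (0.0271) and without KO 12 h replicate 1 (0.0309) or 2 (0.0457). At 12 h Fth1 was still 0.14 ± 0.03 above 0 h in KO (adjusted p = 0.00161), a call that ended without the count filter (adjusted p = 0.446). In WT it stood at 0.05 ± 0.03 (adjusted p = 0.256). The 6 h rises of 0.12 ± 0.03 in WT (adjusted p = 0.0128) and 0.10 ± 0.03 in KO (adjusted p = 0.0472) were less secure. The WT one ended without WT 0 h replicate 2 (0.0663) or 3 (0.110), without WT 6 h replicate 1 (0.123) or 3 (0.0572) and without the count filter (0.802). The KO one ended without any 1 of the 6 KO libraries of 0 and 6 h (0.0564 to 0.274) and in 3 other settings (0.0581 to 0.981).

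Ftl1 (ENSMUSG00000050708, chromosome 7, 45457944 to 45459884), the ferritin chain that supports mineral formation, peaked at 9 h in WT. Its libraries held 1689, 1627 and 1685 CPM before challenge, 1546, 1731 and 1646 after 3 h, 1868, 1936 and 1885 after 6 h, 2008, 2091 and 2161 after 9 h, and 1575, 1738 and 1698 after 12 h. The 9 h change was 0.32 ± 0.08 (adjusted p = 0.00655), and Ftl1 fell by 0.32 again from 9 to 12 h (SE 0.08, adjusted p = 0.00743). In KO the libraries were at 1456, 1307 and 1439 CPM at 0 h and at 1700, 1718 and 1465 at 9 h, a change of 0.22 ± 0.08 that did not pass (adjusted p = 0.0781). Without KO 9 h replicate 3, the lowest of that group, it was 0.30 and passed (adjusted p = 0.0199). At 6 h the changes were 0.19 ± 0.08 in WT (adjusted p = 0.193) and 0.18 ± 0.08 in KO (adjusted p = 0.198). The WT value passed in a fit of its groups alone (0.0179), and the KO value without KO 6 h replicate 2 (0.27, 0.0418).

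Ftl1 has near-identical copies, so its own row is uncertain. Of the counts on Ftl1, Ftl1-ps1, Ftl1-ps2 and Ftl2-ps together, 30.4% to 37.6% stood on the copies. With the 4 rows summed, a setting chosen after the data were seen, the KO rise at 9 h was 0.23 and passed (adjusted p = 0.00993).

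**Figure D2:**
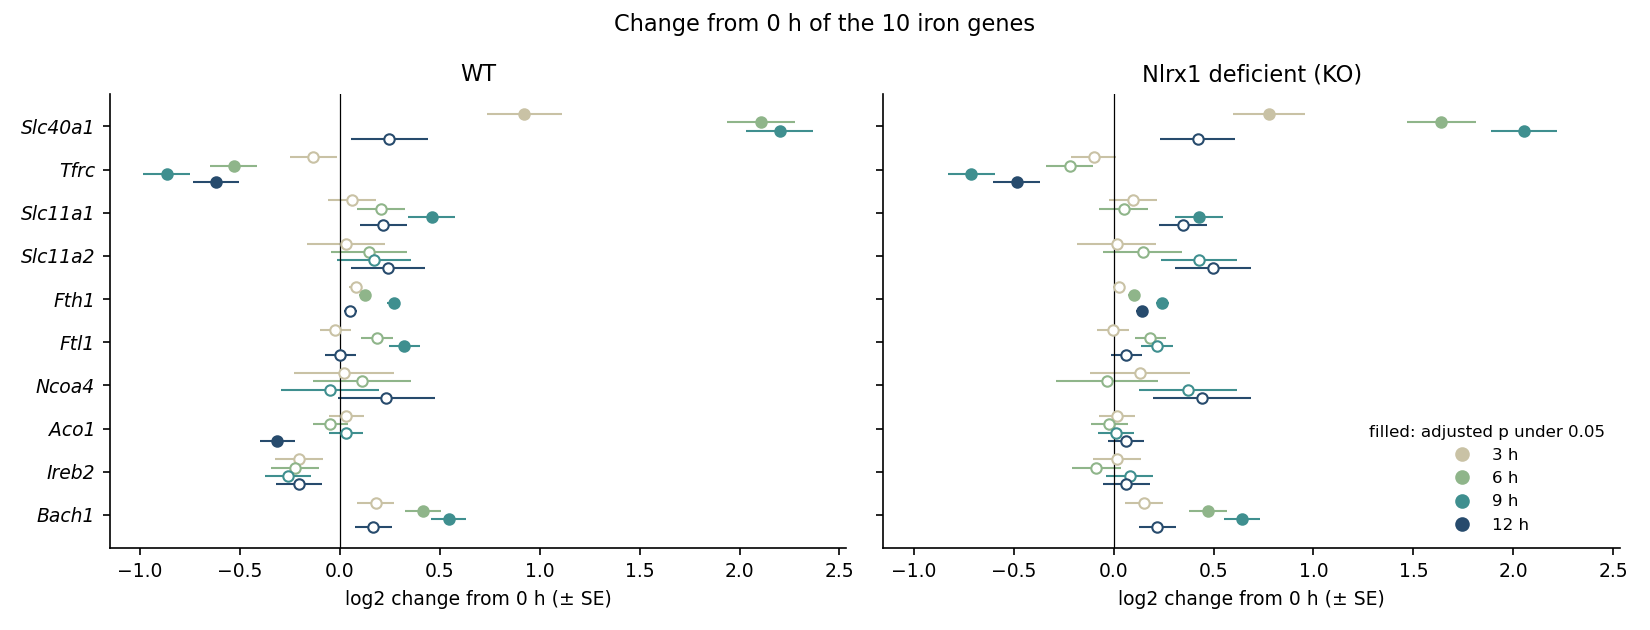
Log2 change from 0 h of the 10 genes at 3, 6, 9 and 12 h, in WT (left) and KO (right); points are fitted changes, bars are SE, and filled points have an adjusted p under 0.05. Slc40a1 reached 2.20 in WT and 2.05 in KO at 9 h, Tfrc lay at -0.87 and -0.71, and Ireb2, Ncoa4 and Slc11a2 have no filled point.

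Ncoa4 (ENSMUSG00000056234, chromosome 14, 32159865 to 32179855), which delivers ferritin to lysosomes, varied widely between the libraries of a group. It ran from 68.8 to 103 CPM in WT at 0 h and from 90.5 to 133 at 12 h, and in KO at 6 h from 48.3 to 114. Its largest change was 0.44 ± 0.25 in KO at 12 h (adjusted p = 0.274), and it passed the test in no comparison.

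The regulators differed from each other. Aco1 (ENSMUSG00000028405, chromosome 4, 40143081 to 40198338), the iron regulatory protein that is a cytosolic aconitase when it holds an iron-sulfur cluster, was tightly replicated in WT, at 67.5, 67.6 and 68.0 CPM at 0 h and 71.1, 71.05 and 65.5 at 9 h. At 12 h it was at 54.2, 55.4 and 53.6 CPM, below every other WT library. It fell by 0.31 from 0 h (SE 0.09, adjusted p = 0.0124) and by 0.35 from 9 h (SE 0.09, adjusted p = 0.00851). The fall from 0 h did not pass with DESeq2 (adjusted p = 0.0722) or without the count filter (0.062). In KO Aco1 was at 55.1, 59.2 and 62.7 CPM at 0 h and at 59.3, 61.9 and 63.6 at 12 h, a change of 0.06 ± 0.09 (adjusted p = 0.777).

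Ireb2 (ENSMUSG00000032293, chromosome 9, 54863789 to 54912530), the second iron regulatory protein, whose control is mainly by protein breakdown, was called at no time. Its WT means were 59.6 ± 3.23 CPM at 0 h and 49.8 to 51.6 at later times, with changes of -0.26 to -0.20, and its KO means were 53.5 to 60.1 CPM.

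Bach1 (ENSMUSG00000025612, chromosome 16, 87698945 to 87733346), the heme-binding repressor, rose at 6 and 9 h and came down by 12 h. WT libraries held 88.6, 88.9 and 82.6 CPM before challenge, 100.2, 103 and 91.4 after 3 h, 120.5, 119 and 108 after 6 h, 127, 121 and 131 after 9 h, and 96.9, 99.98 and 95.4 after 12 h. The KO values of these times were 81.1, 85.8 and 74.2 CPM, 96.6, 89.9 and 81.6, 93.5, 115 and 125, 134, 118 and 125, and 100.7, 97.9 and 81.7. The 6 and 9 h libraries lay above those of 0 h in both genotypes.

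At 3 h the change of Bach1 was 0.18 ± 0.09 in WT (adjusted p = 0.559) and 0.15 ± 0.09 in KO (adjusted p = 0.692). At 6 h it rose by 0.42 ± 0.09 in WT (adjusted p = 0.00457) and 0.47 ± 0.09 in KO (adjusted p = 0.00162), calls that ended without the count filter (0.0747 and 0.0594) and, for KO, in a fit of the compared groups alone (0.0505). At 9 h it rose by 0.54 ± 0.09 in WT (adjusted p = 0.000115) and 0.64 ± 0.09 in KO (adjusted p = 1.43e-05), under all 13 alternatives. It then fell by 0.38 in WT (SE 0.09, adjusted p = 0.00506) and by 0.42 in KO (SE 0.09, adjusted p = 0.00409) from 9 to 12 h. The KO fall did not pass in a fit of its groups alone (0.0652), and without KO 12 h replicate 3 the KO change from 0 h at 12 h, otherwise 0.22 ± 0.09, reached 0.30 (adjusted p = 0.0384).

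Counted together in WT, 1 of the 10 members was called at 3 h, a riser, where 1.02% of all genes tested were called, 0.88% rising and 0.137% falling. At 6 h 4 were called, 3 rising and 1 falling, against 5.96% of all genes, 3.29% rising and 2.67% falling. At 9 h 6 were called, 5 rising and 1 falling, against 10.4% of all genes, 5.57% rising and 4.81% falling. At 12 h 2 members fell and none rose, against 18.1% of all genes, 9.64% rising and 8.47% falling. No member rose there at an unadjusted p under 0.05 either, and DESeq2 called 1 member, Tfrc. Of all 12393 genes tested in edgeR, 3696 had such an unadjusted p there, in either direction.

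In KO 1 member rose at 3 h, against 1.22% of all genes called, 1.03% rising and 0.186% falling. At 6 h 3 rose and none fell, against 5.91%, with 3.21% rising and 2.7% falling. At 9 h 4 rose and 1 fell, against 10.9%, with 5.86% rising and 5% falling, and at 12 h 1 rose and 1 fell, against 14.7%, with 8.13% rising and 6.58% falling. The median change of the 10 members at 9 h was 0.22 in WT and 0.31 in KO, and that of all genes was 0.01 and -0.0008839. From 9 to 12 h 5 members fell and none rose in WT, against 10.5% of all genes called, 5.16% rising and 5.37% falling, and 2 fell and none rose in KO, against 4.49%, with 2.65% rising and 1.84% falling. The members' calls were most numerous at 9 h, whereas those over all genes were at 12 h.

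Levels of markers of other cells moved over the same times. The summed level of 13 macrophage markers was 3430 to 3610 CPM in WT at 0 h, 2970 to 3080 at 9 h and 2640 to 2720 at 12 h. That of 13 neutrophil markers was 1490 to 1550 CPM in WT at 0 h, 1700 to 2050 at 6 h and 1310 to 1430 at 12 h. In KO the neutrophil sum was 1280 to 1340, 1560 to 1660 and 1060 to 1070 at those times. No library held more than 183 CPM of S100a8, 473 of S100a9 or 2.93 of Ly6g. Part of each neutrophil sum therefore came from other listed markers, whose levels are not reported here. The part of these marker levels in the rise and fall of the iron genes was not tested. The erythroid sum was 18.5 to 38.7 CPM over all libraries, and at 9 h it was 18.5 to 24.1 in WT and 19.8 to 24.6 in KO.

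In the authors' deposited tables, which list genes under an adjusted p of 0.05, Slc40a1 stands at 2.10 ± 0.29 at 6 h and 2.20 ± 0.26 at 9 h in WT. The ± values there are the authors' own standard errors, not those computed from the F statistic here. The authors' deposited tables for KO give it 1.64 ± 0.30 at 6 h and 2.06 ± 0.26 at 9 h. Bach1 is listed by the authors' deposited tables at 9 h (0.54 ± 0.14 in WT and 0.65 ± 0.15 in KO). Tfrc is in the authors' deposited tables at 9 h (-0.87 ± 0.18 in WT and -0.71 ± 0.19 in KO) and, for WT, at 12 h (-0.62 ± 0.18). No other member is listed in the authors' deposited tables, and none in their 3 h tables or those that compare the genotypes.

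The genotypes differed most clearly in the ferritin light chain. Ftl1 was lower in KO at each time, at group means of 1401, 1397, 1590, 1628 and 1464 CPM from 0 to 12 h against 1667, 1641, 1896, 2086 and 1671 in WT. The ranges did not overlap at 0, 3, 6 and 9 h and overlapped at 12 h, where KO libraries were at 1369, 1381 and 1641 CPM and WT libraries at 1575, 1738 and 1698. Averaged over the 5 times the difference was -0.26 ± 0.03 (adjusted p = 3.71e-06), and it was called under all 36 alternatives, at -0.31 to -0.23.

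At single times the light chain difference passed at 9 h (-0.36 ± 0.08, adjusted p = 0.00526), a call that ended without KO 9 h replicate 3 (adjusted p = 0.0609). At 0, 3, 6 and 12 h it was -0.25, -0.23, -0.25 and -0.19, each ± 0.08 (adjusted p = 0.0629, 0.0739, 0.0536 and 0.310). With the 4 Ftl1 rows summed it passed at 0 h (-0.24, adjusted p = 0.0156), 3 h (-0.22, 0.0234), and 6 h (-0.25, 0.00999). The KO value also passed at 3 h without KO 3 h replicate 3 (-0.31, 0.0297), at 6 h without KO 6 h replicate 1 (-0.32, 0.0292), and at 0 h in a fit of those groups alone (-0.24, 0.0300).

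The heavy chain did not share this difference. Over the 5 times Fth1 was 0.05 ± 0.01 higher in KO (adjusted p = 0.0101), a value that turned to -0.003545 without the count filter and did not pass without WT 6 h replicate 2 (0.0813), KO 3 h replicate 2 (0.0754) or KO 12 h replicate 2 (0.0743). At 12 h Fth1 was 0.14 ± 0.03 higher in KO (adjusted p = 0.0110), a call lost on leaving out WT 12 h replicate 2 (0.146) or 3 (0.184) or KO 12 h replicate 1 (0.142) or 2 (0.126), in a fit of those groups alone (0.284) and without the count filter (0.886). The ratio of Fth1 to Ftl1 counts within a library was 4.97 to 6.27 in WT and 5.87 to 7.74 in KO. At 0, 6 and 9 h it did not overlap between genotypes, being 5.26 to 5.57 and 6.26 to 7.37 at 0 h, 4.97 to 5.44 and 5.87 to 7.14 at 6 h, and 5.02 to 5.48 and 6.57 to 7.42 at 9 h.

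**Figure D3:**
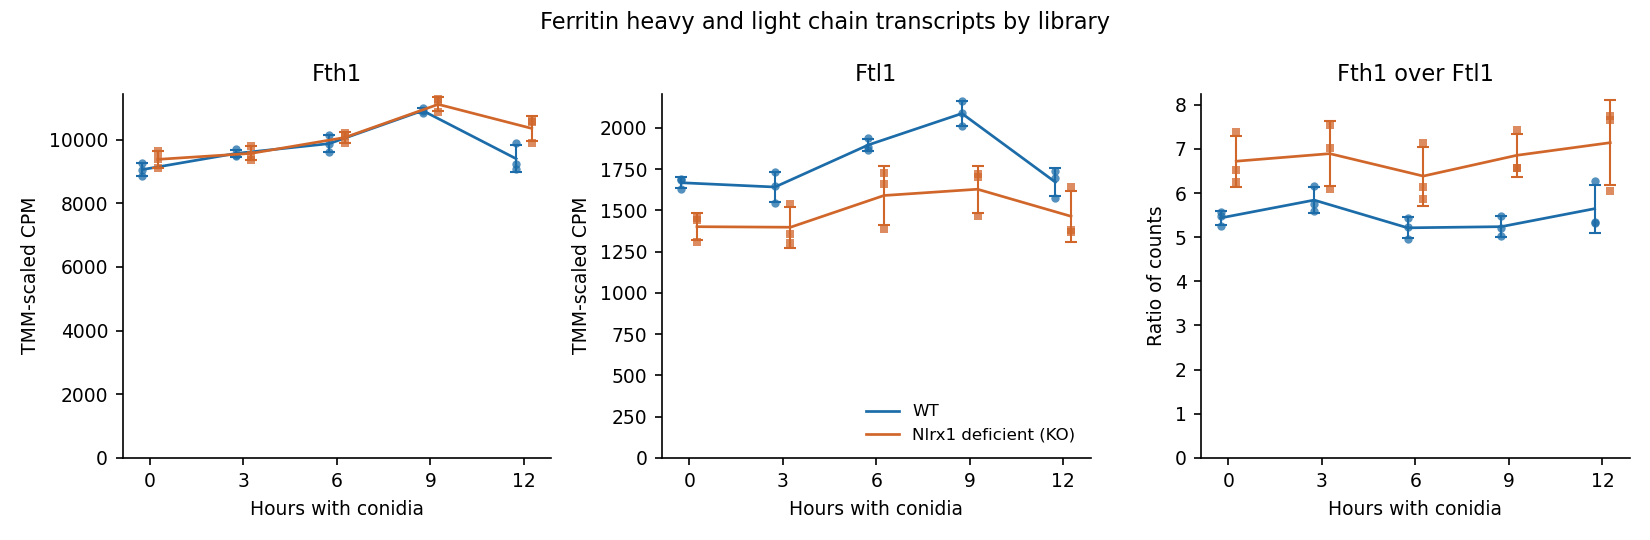
Levels of Fth1 and Ftl1 in TMM-scaled CPM and the ratio of their counts, against hours with conidia; points are libraries, lines join group means and bars are SD (n = 3), with WT as circles, KO as squares and axes from 0. Fth1 overlaps between the genotypes up to 9 h, Ftl1 is lower in KO, and the ratio lies at 4.97 to 6.27 in WT and 5.87 to 7.74 in KO.

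Of the 10 members, 4 differed between the genotypes over all times, with 2 higher and 2 lower in KO, whereas 12.6% of all genes tested were higher and 12.2% lower. Beside Ftl1 and Fth1 these were Tfrc, 0.19 ± 0.05 higher (adjusted p = 0.00857), and Aco1, 0.12 ± 0.04 lower (adjusted p = 0.0231). The Tfrc call ended without the count filter (0.134), and the Aco1 call with DESeq2 (0.114). A share of 4 in 10 is to be read against the 24.9% of all genes that were called in this comparison.

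The Tfrc difference was 0.07, 0.10, 0.38, 0.22 and 0.20 from 0 to 12 h and passed at no single time (lowest adjusted p = 0.0677, at 6 h), but did so at 6 h without WT 6 h replicate 2 (0.0201) or KO 6 h replicate 1 (0.0447). Aco1 was at -0.20, -0.21, -0.17 and -0.22 from 0 to 9 h and at 0.18 ± 0.09 at 12 h, where KO libraries lay above all WT libraries. Without KO 3 h replicate 1 its 3 h value was -0.34 and passed (adjusted p = 0.0418). The other 6 members did not pass over all times, with values from -0.07 (Bach1) to 0.12 (Ireb2, 0.12 ± 0.05, adjusted p = 0.0864, and called without WT 9 h replicate 2, 0.0486, or KO 3 h replicate 3, 0.0499). For Slc40a1 the mean difference was 0.10 ± 0.08 (adjusted p = 0.345).

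At single times the calls were few. No member was called between the genotypes at 0 h, where 5.02% of all genes were (2.26% higher and 2.76% lower in KO), at 3 h (6.92%, with 3.02% higher and 3.9% lower) or at 6 h (5.78%, with 2.42% higher and 3.36% lower). At each of these times 2 members had an unadjusted p under 0.05 in edgeR and DESeq2 called none. Of all 12393 genes tested, 2132, 2474 and 2285 had such an unadjusted p at 0, 3 and 6 h. At 9 h 1 member was called, Ftl1, against 5.06% of all genes, 2.15% higher and 2.91% lower. At 12 h it was Fth1, against 1.9%, with 1.23% higher and 0.678% lower.

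The macrophage marker sum was lower in KO at every time, at 2500 to 2740 CPM against 3430 to 3610 at 0 h and 2220 to 2340 against 2970 to 3080 at 9 h, and the neutrophil sum was lower as well. The dendritic marker sum overlapped between the genotypes at 0 h (3360 to 3690 CPM in KO and 3270 to 3440 in WT) and 3 h, and was higher in KO at 6, 9 and 12 h (3310 to 3430 against 3140 to 3170 at 9 h). The part of these in the Ftl1, Tfrc and Aco1 differences was not tested.

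**Figure D4:**
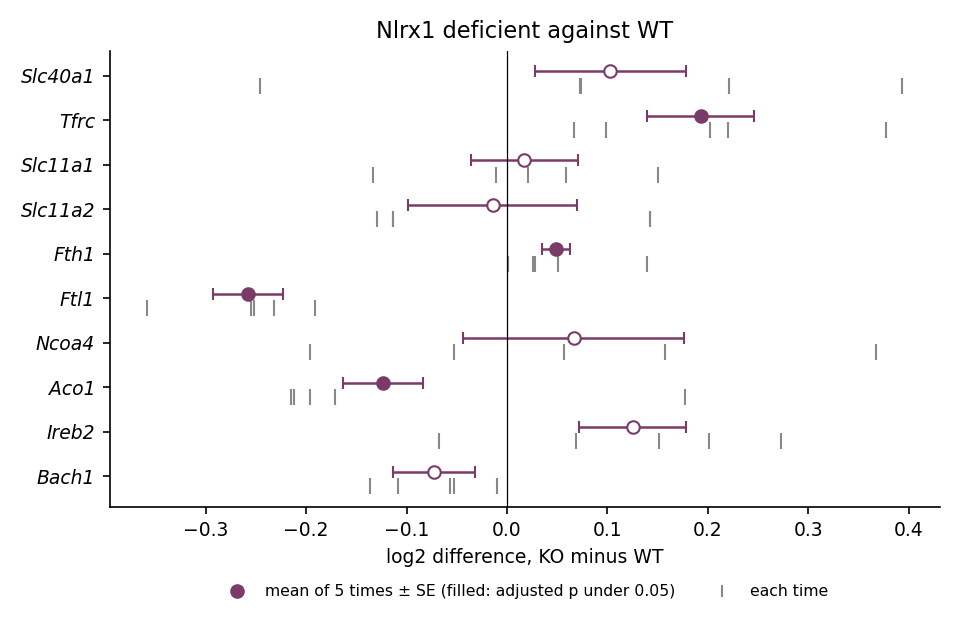
Log2 difference of KO minus WT for the 10 genes; circles are the mean over the 5 times with SE, filled where the adjusted p was under 0.05, and grey ticks are the single times, of which some coincide. Ftl1 lies at -0.26 with all ticks below 0, Tfrc at 0.19 with all ticks above 0, and Aco1 at -0.12 with 1 tick above 0.

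No member had a change from 0 h that differed between the genotypes by a test of that difference. At 3 and 6 h no gene of the whole table was called (0% at both times), at 9 h 0.105%, at 12 h 0.726% and in the joint test over the 4 times 0.888%. Unadjusted p-values under 0.05 were found for no member at 3 and 6 h, for Ireb2 at 9 h, for Aco1 at 12 h, and for Aco1 and Fth1 in the joint test, and DESeq2 called no member. Of all 12393 genes tested in edgeR, 674, 621, 805 and 1475 had such a value at 3, 6, 9 and 12 h. In the joint test 1437 did. Aco1, which was called at 12 h in WT and not in KO, had a difference of 0.37 ± 0.13 at 12 h (adjusted p = 0.189). Slc40a1 at 6 h had a difference of -0.47 ± 0.25 and Tfrc of 0.31 ± 0.17 (adjusted p = 1 for both). The larger WT values at 6 h are therefore not shown to differ from those of KO.

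A wider list of 93 iron genes, without the members, had 72 genes past the filter. At 9 h 8 of these rose and 4 fell in each genotype, where 5.57% of all genes rose and 4.81% fell in WT and 5.86% and 5% in KO. At 12 h 11 rose and 8 fell in WT (9.64% and 8.47% of all genes), and 10 rose and 2 fell in KO (8.13% and 6.58%). The fallers at 9 h were thus near the share over all genes. Their median change at 9 h was 0.09 in WT and 0.07 in KO. All 5 listed genes of heme breakdown were tested. Of these 3 rose at 9 h in WT (5.57% of all genes rose) and 2 in KO (5.86%), among them Hmox1, which opens the heme ring and frees its iron, and Por, the reductase that supplies it with electrons. Hmox1 rose by 1.35 ± 0.06 in WT and 1.60 ± 0.06 in KO at 9 h, and Por by 0.53 ± 0.06 and 0.62 ± 0.07, under all 13 alternatives.

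At 12 h Hmox1 was still above its 0 h level in both genotypes. It stood at 711, 605 and 607 CPM in WT and at 924, 938 and 898 in KO, with 450, 487 and 435 (WT) and 377, 431 and 413 (KO) before challenge. The change from 0 h was 0.49 ± 0.06 in WT and 1.18 ± 0.06 in KO, and the difference of 0.69 ± 0.09 passed (adjusted p = 5.12e-05). Alas1, the first enzyme of heme synthesis, rose by 0.30 ± 0.05 at 9 h and 0.21 ± 0.05 at 12 h in WT, and by 0.25 ± 0.05 and 0.45 ± 0.05 in KO. The WT call at 12 h did not hold without the count filter (adjusted p = 0.0501).

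Among 10 tested regulators 8 were called at 12 h in WT, 6 rising and 2 falling, and 6 in KO, 5 rising and 1 falling, against 18.1% of all genes called in WT and 14.7% in KO. Mafk and Maff, small partners with which BACH1 and its opponents bind DNA, rose by 1.18 ± 0.19 and 1.28 ± 0.21 in WT and by 1.45 ± 0.19 and 1.61 ± 0.22 in KO. Myc, which is known to raise Tfrc and lower Fth1 transcription, fell by 1.34 in WT (SE 0.16) and by 0.94 in KO (SE 0.17) at 9 h. Fbxl5, the iron-sensing ubiquitin ligase subunit that removes IRP2, rose by 0.78 ± 0.15 at 9 h in WT (adjusted p = 0.000638). In KO it rose by 0.46 ± 0.15 (adjusted p = 0.0418), a call that ended without KO 0 h replicate 1 (0.173) or 3 (0.0844), KO 9 h replicate 1 (0.0608) or 2 (0.199), and without the count filter (0.172).

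Of 28 tested genes for iron-sulfur clusters and mitochondrial iron, 1 rose and 1 fell at 9 h in WT, and 1 rose and 2 fell in KO, no more than the 10.4% and 10.9% of all genes called there. The riser was Slc25a37, mitoferrin 1, which brings iron into mitochondria. Its WT level went from 16.6, 18.9 and 14.1 CPM at 0 h to 34.9, 31.5 and 35.5 at 9 h (1.04 ± 0.165, adjusted p = 6.91e-05). In KO it went from 18.5, 20.2 and 27.4 CPM to 27.03, 42.0 and 33.9 (0.63 ± 0.16, adjusted p = 0.0102). Omitting KO 0 h replicate 1 (0.06) or 2 (0.0579) or KO 9 h replicate 2 (0.113), or a fit of the compared groups alone (0.0996), ended that call. Of 8 tested export and systemic genes 2 rose at 12 h in WT and 1 in KO, where 9.64% and 8.13% of all genes rose. Of 9 tested uptake genes 2 fell at 9 h in WT and 1 in KO, where 4.81% and 5% of all genes fell. Those in WT were Trf, transferrin itself (-0.59 ± 0.15, a call that ended without WT 0 h replicate 2, 0.0585, or WT 9 h replicate 3, 0.0892), and Hp, the hemoglobin-binding haptoglobin (-0.39 ± 0.12, called under 6 of 13 alternatives and lost without WT 0 h replicate 1, 0.234, or 2, 0.108, or WT 9 h replicate 1, 0.159, or 3, 0.132).

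Between the genotypes 24 of the 72 wider genes were called over all times, 11 higher and 13 lower in KO, in a comparison that called 24.9% of all genes, 12.6% higher and 12.2% lower. Ltf and Lcn2, the iron-binding lactoferrin and the siderophore-binding lipocalin of neutrophil granules, were lower in KO by -1.16 ± 0.09 and -0.54 ± 0.06, under all 36 alternatives. Ltf was not one of the 13 markers in the neutrophil sum, and that sum was lower in KO as well. Ftl2-ps, one of the Ftl1 copies, was at -0.16 ± 0.02.

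Some genes outside the iron lists followed the same courses closely. Over the 10 group means of log2 CPM, among 11146 genes, those most like Slc40a1 included Zrsr1 (Pearson r 0.972), the lipoprotein receptor Lrp8 (0.962) and the prostacyclin receptor Ptgir (0.961). Zrsr1 averaged 20.3 CPM in WT at 0 h, 36.3 at 9 h and 21.1 at 12 h. Those most like Tfrc were the RNA-binding protein genes Hnrnpa3 (0.976) and Hnrnpd (0.961), the corepressor Cbfa2t3 (0.969), the receptor Gpr35 (0.956) and Ttc13 (0.956). Hnrnpa3 averaged 259 CPM in WT at 0 h, 194 at 9 h and 217 at 12 h. The points share libraries and scaling, and the values are a description.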

How the data were processed

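Gene counts of 30 strand-specific mRNA libraries, as the authors deposited them, were analysed. The tools Trimmomatic 0.35, HISAT2, StringTie and DESeq2 and the build GRCm38 are named per the submitters' processing notes. How these were chained, whether strand was used in counting and which annotation served are not given in the sources at hand. The authors' 13 deposited tables give log2 fold changes and adjusted p-values for selected genes, and 78 normalized per-sample columns in them were not used.

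Genes were kept by filterByExpr with a minimum count of 10 (12393 genes, holding 98.66% of counts), scaled by TMM (factors 0.923 to 1.07) and tested with edgeR 4.0.16 in R 4.3.3, in 1 model of the 10 groups, with Benjamini-Hochberg adjustment. Alternatives were DESeq2 1.42.0 as test or for size factors, scaling on protein-coding genes, no filter (46958 genes), the compared groups alone, a replicate block, each library left out, and, chosen after seeing the data, Ftl1 summed with its copies. An exact permutation of 3 against 3 libraries cannot go below 0.1. The edgeR script was tested on simulated data.

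IDs were named from GENCODE M21 (54495 matched and 37 did not). All members were named. From the wider list a gene could be named if it passed any test and reached 5 CPM in 1 of the groups compared, at most 3 per sub-list by largest change, with Hmox1 and Fbxl5 always. For Slc40a1 and Tfrc the 5 genes of highest correlation were to be named, of which some are not reported here. The members and lists were chosen with earlier results of these data known.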

Additional observations from a re-analysis of the deposited data

Results flagged for a closer look

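Of the 72 tested genes of the wider iron list, 2 had a change from 0 h that differed between WT and KO. This was by a test of that difference (edgeR, adjusted over all genes tested). The joint test over the 4 times called both, where 0.888% of all genes were called. At 12 h the test called 1, where 0.726% of all genes were called. For Hmox1, heme oxygenase 1, the difference at 12 h was 0.69 ± 0.09 (adjusted p = 5.12e-05), and the joint test over the 4 times gave an adjusted p of 5.99e-05. The 12 h difference was called under all 19 alternatives, at 0.62 to 0.78, and the joint test under all 36. For Alas1, which starts heme synthesis, the joint test gave an adjusted p of 0.0482, but it was called under only 9 of 36 alternatives, with adjusted p from 0.0159 to 0.407. Its KO libraries held 1923, 1797 and 1711 CPM after 12 h, and its WT libraries 1488, 1422 and 1406.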

How the results depend on the processing

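Calls of small changes depended on the settings. Among changes called in the main fit or in the alternative, the direction of a member turned once. This was for Fth1 between the genotypes over all times (-0.003545 without the count filter). Turns of changes called in neither fit were not counted. Without the filter the median of all genes moved to 0.32 in WT at 12 h and to 0.18 between the genotypes. Members called were then 2 (of 4) in WT at 6 h, 1 (of 2) at 12 h, 0 (of 1), 1 (of 3) and 1 (of 2) in KO at 3, 6 and 12 h, 0 (of 1) between genotypes at 12 h, 2 (of 4) over all times, and 1 (of 0) at 6 h. Scaling on protein-coding genes also gave 1 (of 0) at 6 h, DESeq2 1 (of 2) in WT at 12 h, and the summed Ftl1 rows 1 (of 0) between genotypes at 0, 3 and 6 h. With the compared groups alone the counts were 0 (of 1) at 3 h in WT and in KO, 1 (of 3) in KO at 6 h, 1 (of 2) in KO from 9 to 12 h, and between genotypes 1 (of 0) at 0 h and 0 (of 1) at 12 h. That fit was not run for the mean over times or the joint test. Smaller moves of a count are left out of this list, such as 2 (of 3) in KO at 6 h and 3 (of 4) between genotypes over all times with DESeq2. The causes were not tested. Shares of all genes called under these settings, or with 1 library left out, are not reported here. A loss of calls particular to the members therefore cannot be told from a general one. Leaving out 1 library gave 0 to 1 members at 3 h, 3 to 4 at 6 h, 5 to 6 at 9 h and 2 at 12 h in WT, 0 to 1, 2 to 3, 4 to 6 and 2 to 3 in KO, and 5 to 6 (WT) and 2 to 3 (KO) from 9 to 12 h. Between genotypes it gave 0 at 0 h, 0 to 1 at 3 h, 0 to 2 at 6 h, 0 to 1 at 9 h, 0 to 1 at 12 h and 3 to 5 over all times. The tests of unequal change gave 0 throughout.

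No pairing of samples by replicate number was seen in the deviations from group means. Of 135 same-numbered pairs none correlated over 0.1 (-0.0736 to 0.0956), and 11 of 30 libraries correlated best with their own number. A small effect shared by number could be missed by this check. The replicate block changed 1 member's call, Fth1 in KO from 9 to 12 h (-0.10, adjusted p = 0.0424 in edgeR). Depth limits the thinly counted members, such as Slc40a1 (24 to 191 counts per library) and Slc11a2 (46 to 134).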
